A study of Mus musculus with 8 samples.

Results

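The genes described here write, remove or read histone methylation and DNA methylation, or work beside the enzymes that do. They are 49 genes, chosen by name and found in the deposited table through their Entrez identifiers, of 24594 genes listed in all. They fall into 9 groups, which are Polycomb repressive complex 2 (PRC2), Polycomb repressive complex 1 (PRC1), the methyltransferases of H3K4, those of H3K36 and H3K79, those of H3K9 and H4K20, the histone lysine demethylases, the DNA methylation and hydroxymethylation enzymes, the SWI/SNF remodelling subunits, and the acetyltransferases p300 and CBP. All 49 had a row in the table, and 48 were among the 12816 genes with enough counts to be tested.

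RNA was sequenced from 2 luminal fractions of the adult virgin mammary gland of untreated wild type C57BL/6J mice. Cells were stained for EpCAM, CD49f, cKit and CD14 and sorted by flow cytometry. The paper describes these 2 fractions as separated on cKit. The fraction rich in cKit holds luminal progenitors (LP, 4 libraries), and the fraction low in cKit holds mature luminal cells (labelled differentiated, 4 libraries). All 8 libraries were made from picogram amounts of RNA, amplified as cDNA. The methods give 3 biological replicates per condition while the table holds 4, and no source says whether each library came from a separate mouse, so the p-values measure the spread between these libraries. The labels join each LP library to a mature library by a number of unstated meaning, and the test treated them as unpaired.

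Polycomb complexes keep developmental genes silent. PRC2, built on Eed, Suz12 and the catalytic subunit Ezh1 or Ezh2, methylates histone H3 at K27, and PRC1, built on the ubiquitin ligases Ring1 or Rnf2 with a PCGF protein, ubiquitinates histone H2A and compacts chromatin. Trithorax-type enzymes of the KMT2 and SETD1 families methylate H3K4 at promoters and enhancers and oppose Polycomb silencing. Dnmt1 copies DNA methylation onto the new strand after replication, Dnmt3a and Dnmt3b set it anew, and the TET enzymes oxidise methylcytosine. In the mammary gland Ezh2 and Bmi1 are known as regulators of progenitor activity.

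The promoters of Rnf2, Bmi1 and Pcgf2 are shown because these PRC1 subunits moved in the same direction and each has 1 annotated start in the RefSeq promoter table for GRCm38.p6, with no annotated exon in the window. Each is the 250 bases before that start, read 5′ to 3′ along the gene, with every CG dinucleotide in capitals. The Rnf2 window lies at chr1:151500992-151501241 on the minus strand the Bmi1 window at chr2:18676768-18677017 on the plus strand and the Pcgf2 window at chr11:97699649-97699898 on the minus strand, inside the RefSeq span of that gene.
Rnf2: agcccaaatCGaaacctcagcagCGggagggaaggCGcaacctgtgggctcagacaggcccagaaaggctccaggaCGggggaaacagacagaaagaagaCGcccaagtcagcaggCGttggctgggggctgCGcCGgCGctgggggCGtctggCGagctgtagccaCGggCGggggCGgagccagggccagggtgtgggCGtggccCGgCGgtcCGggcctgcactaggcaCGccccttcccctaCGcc
Bmi1: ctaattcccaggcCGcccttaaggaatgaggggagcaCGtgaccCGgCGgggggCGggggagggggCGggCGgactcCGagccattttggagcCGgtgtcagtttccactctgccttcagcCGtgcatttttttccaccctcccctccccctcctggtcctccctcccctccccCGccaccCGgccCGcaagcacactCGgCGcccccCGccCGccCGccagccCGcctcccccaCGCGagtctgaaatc
Pcgf2: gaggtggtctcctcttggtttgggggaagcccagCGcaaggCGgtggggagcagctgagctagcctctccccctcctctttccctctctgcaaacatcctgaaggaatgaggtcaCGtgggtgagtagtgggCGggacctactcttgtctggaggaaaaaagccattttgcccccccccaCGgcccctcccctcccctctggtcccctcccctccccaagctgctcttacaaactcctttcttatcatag

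The Rnf2 window holds 20 CG dinucleotides, the Bmi1 window 21 and the Pcgf2 window 5. A window of the same length was at hand for 39 of the 48 tested members, taken at the start farthest upstream, and these windows held between 2 and 51 CG dinucleotides with a median of 23. Over the 10164 tested genes with such a window the median was 16. The letters CCGGAA, the core recognised by ETS factors such as the LP marker Elf5, occurred on either strand in 7 of the 39 member windows (17.9%) and in 22.5% of the windows of all tested genes. They occur in none of the windows printed above. The members are also long transcripts, with a median of 6376 bases of exon against 3248 over the tested genes.

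Library totals ran from 5510863 to 7089597 counts in LP and from 4410049 to 7791593 in mature cells. Levels are given as CPM, in which edgeR's TMM factors bring every library to one size. The sorted fractions carried the markers of their labels. Of 6 LP markers 4 were called as higher in LP, namely Kit (522 to 832 CPM in LP, 41.2 to 179 in mature), Cd14, Elf5 and Csn3. The Kit protein was used in the sort, so the Kit call is not independent of it. CD14 is listed among the stains, but the paper describes this sort as based on cKit. The Cd14 call may or may not be independent of the sort. Aldh1a3 and Lif were not called. All 7 mature luminal markers, among them Pgr and Prlr, were higher in mature cells. Of 5 markers shared by luminal cells 4 were also called as higher in mature cells. These were Krt8, Krt18, Krt19 and Cdh1 (log2 fold changes -1.24, -1.59, -1.62 and -0.88), while Epcam was not called (0.26). The third mature library lay closest to LP on the first principal component and had the highest Kit and Elf5 of the mature libraries. Summed levels were at most 51.1 CPM for 8 basal markers, 53.7 for 6 immune markers, 8.48 for 4 endothelial markers and 84.2 for 2 erythroid markers. For 6 fibroblast and adipocyte markers the sum was 134 and 173 CPM in mature replicates 1 and 2, 21.1 and 20.8 in mature replicates 3 and 4 and 7.35 to 37.9 in LP. Dcn alone stood at 132 and 154 CPM in mature replicates 1 and 2, so these sums say little about the rest of the list. Of 9 tested genes of dissociation and stress, 7 were called as higher in mature cells and none as higher in LP. Their summed level was 990 to 1659 CPM in LP and 3921 to 17950 in mature cells, with the highest value in the third mature library. Where such values stand beside a result, their part in it was not tested.

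Across all tested genes, edgeR's quasi-likelihood test with Benjamini-Hochberg adjustment called 24.7% at an adjusted p-value under 0.05, 10.9% with LP above mature and 13.8% with mature above LP. Among the 48 tested members 8 were called, or 16.7%, 1 with LP above mature and 7 with mature above LP. The share of members called was below that of all genes with all 8 libraries, but not without LP replicate 3, where it was 22.9% against 20.9%. Leaving out 1 library at a time moved the count from 8 to between 4 (without LP replicate 4) and 11 (without LP replicate 3 or mature replicate 3), with 5 called without LP replicate 2 or mature replicate 4. The gene higher in LP was Dnmt1, and those higher in mature cells were the PRC1 subunits Rnf2, Bmi1 and Pcgf2, the PRC2 partner Jarid2, the methyltransferases Setd2 and Kmt5a, and the demethylase Kdm3a. The LP and mature libraries did not overlap for 29.5% of all tested genes and for 10 of the 48 members (20.8%). In bulk samples fewer cells of a type and less RNA per cell cannot be told apart.

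Over the tested members the median log2 fold change, LP over mature, was -0.26, against 0 over all tested genes, and 33 of the 48 values lay below 0. Fold changes were small. The median absolute log2 fold change was 0.46 over the members and 0.55 over all tested genes, with a median standard error of 0.26 and 0.32. With scaling by library totals alone, chosen after the values were seen, the median of all genes moved to 0.19, 33 members still lay below that median and 25 lay below 0. That scaling turned the calls from 1394 genes with LP above mature and 1767 with mature above LP into 2031 and 1281, and those of the members from 1 and 7 into 4 and 3.

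**Figure D1:**
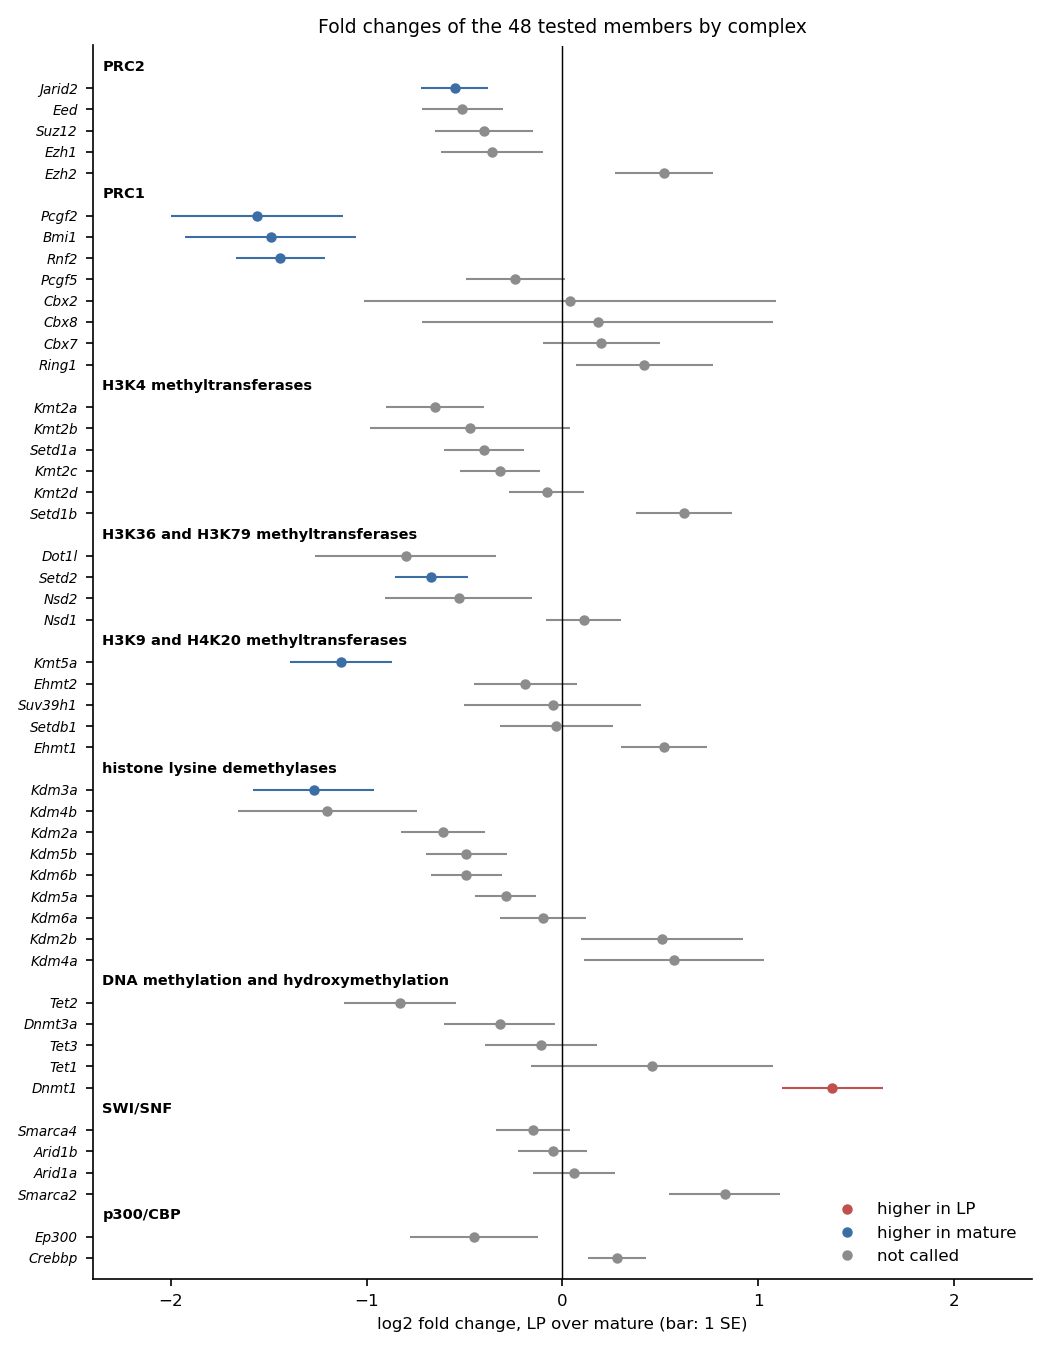
Log2 fold change, LP over mature, with 1 standard error for the 48 tested members, grouped by complex; red marks higher in LP, blue higher in mature cells and grey not called at an adjusted p-value of 0.05. The blue points include 3 of the 8 PRC1 subunits, and Dnmt1 at 1.38 is the red one.

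In PRC1, 3 of 8 members were called, against 24.7% of all tested genes. Rnf2, which encodes the ubiquitin ligase RING1B, stood at 66.8, 39.0, 56.3 and 85.2 CPM in LP replicates 1 to 4 and at 171, 195, 141 and 167 CPM in mature replicates 1 to 4. Every mature library was above every LP library, and the level was 2.72-fold higher in mature cells (log2 fold change -1.44, SE 0.229, edgeR adjusted p = 0.0017). Its gene lies at chr1:151469398-151500991. Rnf2 had the highest level per kb of exon in PRC1, at 18.5 ± 5.79 CPM per kb in LP and 50.3 ± 6.61 in mature cells (SD, n = 4).

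Bmi1 and Pcgf2 encode the alternative PCGF partners of canonical PRC1, the proteins BMI1 and MEL18. Bmi1, at chr2:18677018-18686629, had 8.28, 10.2, 3.98 and 7.91 CPM in the LP libraries and 36.6, 11.3, 23.0 and 14.3 CPM in the mature libraries. It was 2.80-fold higher in mature cells (log2 fold change -1.49, SE 0.438, edgeR adjusted p = 0.0301). The groups lay apart, but the highest LP and the lowest mature library were close. Pcgf2, at chr11:97688821-97702434, had 10.3, 5.75, 9.96 and 4.02 CPM in LP and 26.2, 12.1, 15.2 and 34.7 CPM in mature cells, and was 2.94-fold higher there (log2 fold change -1.56, SE 0.438, edgeR adjusted p = 0.0251). Both genes were low, and the calls depended on the fit, since Bmi1 kept its call in 8 of 15 alternative fits and Pcgf2 in 9, while Rnf2 kept it in all 15. The Bmi1 call was lost without LP replicate 1, 3 or 4 or mature replicate 1 or 3, with edgeR adjusted p-values of 0.0544 to 0.106. The Pcgf2 call was lost without LP replicate 2 or 4 or mature replicate 1 or 4, with edgeR adjusted p-values of 0.0631 to 0.079. With a block by replicate number both calls were lost (edgeR adjusted p = 0.069 for Bmi1 and 0.0544 for Pcgf2).

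The other 5 PRC1 members were not called, with log2 fold changes between -0.24 and 0.42 and edgeR adjusted p-values of 0.418 or more. Pcgf5, the PCGF protein of a variant complex, had the second highest level per kb in the group, at 14.2 ± 1.58 CPM per kb in LP and 16.8 ± 6.31 in mature cells. Ring1, the paralog of Rnf2, had a log2 fold change of 0.42 with a standard error of 0.348. The chromodomain readers Cbx2, Cbx7 and Cbx8 had log2 fold changes of 0.04, 0.20 and 0.18. Cbx2 and Cbx8 had no count in the fourth mature library, and their standard errors of 1.05 and 0.895 leave a change of either sign undetermined at this depth.

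**Figure D2:**
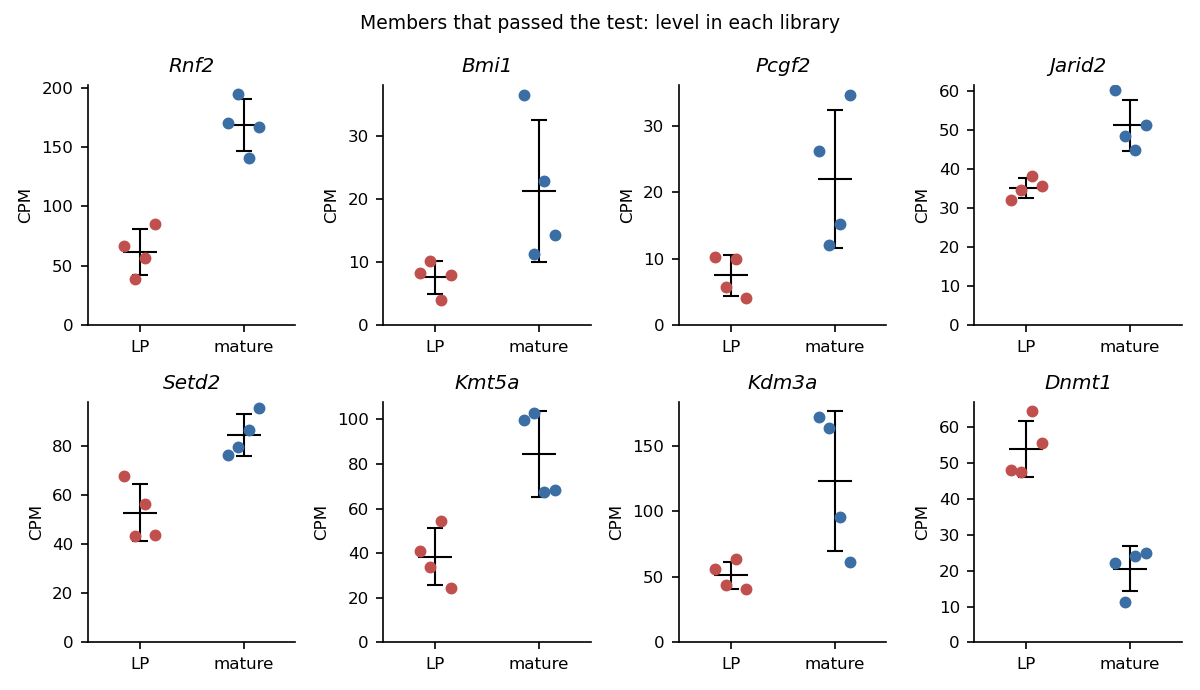
CPM in each of the 4 LP (red) and 4 mature (blue) libraries for the 8 called members, with the mean and SD as a black bar; every axis starts at 0. Groups do not overlap except for Kdm3a, where the fourth mature library (61.6) lies below the third LP library (63.4).

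In PRC2, 1 of 5 members was called (20%, against 24.7% of all tested genes). Here and in the groups that follow, the member called highest per kb is that with the highest mean over all 8 libraries. Jarid2, which encodes a DNA-binding partner that guides PRC2 to its targets, had 32.1, 34.7, 38.2 and 35.7 CPM in LP and 60.3, 48.6, 44.9 and 51.2 CPM in mature cells. The groups did not overlap, and the level was 1.46-fold higher in mature cells (log2 fold change -0.55, SE 0.172, edgeR adjusted p = 0.0407). The gene lies at chr13:44730774-44921643. This call was the least stable of the 8 and held in 3 of 15 alternative fits. Of the fits with 1 library left out, it held only without mature replicate 3, and in the others the edgeR adjusted p-value was 0.058 to 0.123. With a block by replicate number the Jarid2 call was lost (edgeR adjusted p = 0.0805).

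Ezh2, the catalytic subunit of PRC2 in dividing cells, had 29.9, 28.0, 19.8 and 20.1 CPM in LP and 14.5, 16.8, 17.9 and 18.8 CPM in mature cells. Every LP library was above every mature library, by as little as 19.8 against 18.8 CPM, and the gene was not called (log2 fold change 0.52, SE 0.249, edgeR adjusted p = 0.151). Its paralog Ezh1 had a log2 fold change of -0.36 and Suz12 of -0.40, neither called. Eed, the subunit that binds methylated H3K27, had the highest mean level per kb of the 49 members over all 8 libraries, with 61.3, 53.3, 58.6 and 76.6 CPM in LP and 94.5, 117, 66.0 and 78.5 CPM in mature cells. Its groups overlapped (log2 fold change -0.51, edgeR adjusted p = 0.0957), and 12.6% of its exon bases also lie in an annotated gene on the opposite strand.

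None of the 6 H3K4 methyltransferases was called, and 5 of their log2 fold changes were below 0, or 4 with scaling by library totals alone. Setd1a had the highest level per kb among them, with 33.8, 36.7, 27.2 and 42.7 CPM in LP and 52.7, 45.4, 36.7 and 50.2 CPM in mature cells (log2 fold change -0.40, SE 0.205, edgeR adjusted p = 0.185). Its groups overlapped, and 53.7% of its exon bases are shared with other annotated genes, so its counts are uncertain. Setd1b, its paralog, had a log2 fold change of 0.62 (edgeR adjusted p = 0.0911), and Kmt2a, the MLL1 enzyme, of -0.65 (edgeR adjusted p = 0.0829). The enhancer methyltransferases Kmt2c and Kmt2d had log2 fold changes of -0.32 and -0.08, and Kmt2b of -0.47.

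Of the 4 enzymes of H3K36 and H3K79, Setd2 was called (25%, against 24.7% of all tested genes). Setd2, which lays down trimethylated H3K36 along transcribed genes, had 68.0, 43.4, 56.4 and 44.0 CPM in LP and 76.2, 79.6, 86.8 and 95.4 CPM in mature cells. The groups did not overlap, and the level was 1.60-fold higher in mature cells (log2 fold change -0.67, SE 0.186, edgeR adjusted p = 0.0229), a call that held in 10 of 15 alternative fits. It was lost without LP replicate 2 or 4 or mature replicate 4, with edgeR adjusted p-values of 0.0721, 0.0692 and 0.0658. The gene lies at chr9:110532500-110618633. Nsd1, a dimethyltransferase of H3K36 with the highest level per kb of the group over all 8 libraries though below Setd2 in mature cells, had 127, 144, 179 and 107 CPM in LP and 133, 105, 156 and 121 CPM in mature cells. Its groups overlapped widely (log2 fold change 0.11, SE 0.192). Nsd2 and the H3K79 enzyme Dot1l had log2 fold changes of -0.53 and -0.80 with edgeR adjusted p-values of 0.332 and 0.239.

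Among the enzymes of H3K9 and H4K20, 1 of 5 was called (20%, against 24.7% of all tested genes). Kmt5a, which encodes the H4K20 monomethyltransferase SET8, had 41.1, 33.9, 54.5 and 24.6 CPM in LP and 99.8, 103, 67.4 and 68.1 CPM in mature cells. The groups did not overlap, and the level was 2.19-fold higher in mature cells (log2 fold change -1.13, SE 0.261, edgeR adjusted p = 0.0101), a call kept in all 15 alternative fits. The gene lies at chr5:124439930-124462311, and its level per kb, 12.9 ± 4.22 in LP and 28.3 ± 6.48 in mature cells, was the highest of the group in mature cells and over all 8 libraries, while Ehmt1 stood slightly above it in LP at 13.1 ± 2.83. The H3K9 methyltransferases Ehmt1, Ehmt2, Setdb1 and Suv39h1 were not called, with log2 fold changes of 0.52, -0.19, -0.03 and -0.05.

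The 9 demethylases included 1 called gene (11.1%, against 24.7% of all tested genes). Of their log2 fold changes 7 were below 0, or 6 with scaling by library totals alone. Kdm3a, an H3K9 demethylase, had 56.2, 43.9, 63.4 and 40.9 CPM in LP and 172, 164, 95.9 and 61.6 CPM in mature cells. It was 2.41-fold higher in mature cells (log2 fold change -1.27, SE 0.310, edgeR adjusted p = 0.0133) and kept its call in all 15 alternative fits, although its groups overlapped. The gene lies at chr6:71588970-71632990. The mature libraries with the most Kdm3a, replicates 1 and 2, also had the highest sums of fibroblast and adipocyte markers, mostly from Dcn. The part of these in the result was not tested. Kdm6b, an H3K27 demethylase also known as an inducible gene, had 36.7, 34.7, 45.3 and 50.8 CPM in LP and 62.9, 54.6, 55.4 and 62.8 CPM in mature cells. Its groups did not overlap, and it was not called (log2 fold change -0.49, SE 0.180, edgeR adjusted p = 0.069). Stress genes were higher in the same mature libraries, and their part in this was not tested.

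Kdm5a, an H3K4 demethylase, had the highest level per kb of the demethylases, with 280.1, 201, 227 and 206 CPM in LP and 269, 312, 279.5 and 255 CPM in mature cells. The groups overlapped (log2 fold change -0.29, SE 0.158, edgeR adjusted p = 0.213). The remaining 6 demethylases were Kdm2a, Kdm2b, Kdm4a, Kdm4b, Kdm5b and Kdm6a. Their log2 fold changes ran from -1.20 for Kdm4b (edgeR adjusted p = 0.0792) to 0.57 for Kdm4a, and none was called. Kdm6a, the X-linked H3K27 demethylase UTX, had a log2 fold change of -0.10 with a standard error of 0.219.

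Dnmt1 was the called member with a higher level in LP. It had 48.1, 47.6, 64.4 and 55.5 CPM in LP and 22.2, 11.3, 24.0 and 24.9 CPM in mature cells. The groups lay well apart, and the level was 2.60-fold higher in LP (log2 fold change 1.38, SE 0.259, edgeR adjusted p = 0.00379), a call kept in all 15 alternative fits. The gene lies at chr9:20907206-20959888. Maintenance methylation is tied to replication. Of 14 tested proliferation markers none was called as higher in LP and 1, Mki67, as higher in mature cells. Mki67 was low throughout, at 0 to 0.996 CPM in LP and 2.89 to 6.03 CPM in mature cells. The summed level of all 20 listed proliferation markers was 171 to 229 CPM in LP and 166 to 258 in mature cells. Much of it came from Mcm6 (mean 90.4 CPM in LP and 89.8 in mature cells) and Pcna (37.6 and 36.4). The part of proliferation in the Dnmt1 result was not tested. Uhrf1, the partner that recruits Dnmt1 to hemimethylated DNA, had too few counts to be tested.

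The de novo methyltransferase Dnmt3a had a log2 fold change of -0.32 and was not called. Dnmt3b had 9, 8, 8 and 9 counts in the LP libraries and 1, 4, 0 and 6 counts in the mature libraries, below the minimum for the test. Tet2, which had the highest level per kb in the group over all 8 libraries though below Dnmt1 in LP, stood at 34.9, 35.2, 60.1 and 51.2 CPM in LP and at 49.8, 112, 97.6 and 64.5 CPM in mature cells. Its groups overlapped, and it missed the threshold (log2 fold change -0.83, SE 0.285, edgeR adjusted p = 0.0545). Tet3 had a log2 fold change of -0.11 and the low Tet1 of 0.46 with a standard error of 0.618.

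None of the 4 SWI/SNF members was called. Smarca4, the ATPase BRG1 and the highest per kb, had 112, 78.4, 124 and 88.4 CPM in LP and 111, 88.5, 116 and 130.0 CPM in mature cells, and the groups overlapped (log2 fold change -0.15, SE 0.190). Smarca2, the alternative ATPase BRM, missed the threshold (log2 fold change 0.83, SE 0.284, edgeR adjusted p = 0.0553) and was called in 5 of 15 alternative fits. The DNA-binding subunits Arid1a and Arid1b had log2 fold changes of 0.06 and -0.05, with standard errors of 0.212 and 0.174.

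Crebbp, which encodes the acetyltransferase CBP, had 264, 306, 323 and 273 CPM in LP and 263, 250.1, 237 and 207 CPM in mature cells. The groups touched without overlapping, and it was not called (log2 fold change 0.28, SE 0.147, edgeR adjusted p = 0.187). Ep300, its paralog, had a log2 fold change of -0.45 (edgeR adjusted p = 0.346).

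Per kb of exon, the mean level over all 8 libraries ran from 0.206 CPM for Dnmt3b to 36.7 for Eed. Eed, Crebbp, Kdm5a and Rnf2 led in LP, at 30.2 ± 4.83, 26.9 ± 2.57, 20.9 ± 3.31 and 18.5 ± 5.79 CPM per kb (SD, n = 4), and each differed from its neighbour in this order by no more than the larger of their SDs, apart from Crebbp and Kdm5a. In mature cells Rnf2 led, at 50.3 ± 6.61, before Eed at 43.1 ± 10.7 and Kmt5a at 28.3 ± 6.48, where the gap between Rnf2 and Eed was within the SD of Eed. Dnmt1 stood at rank 16 of 49 in LP and at rank 38 in mature cells. The lowest 4 members over all 8 libraries, Cbx2, Kmt2b, Tet1 and Dnmt3b, were below 1.5 CPM per kb in both fractions, as were Nsd2 and Suv39h1.

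**Figure D3:**
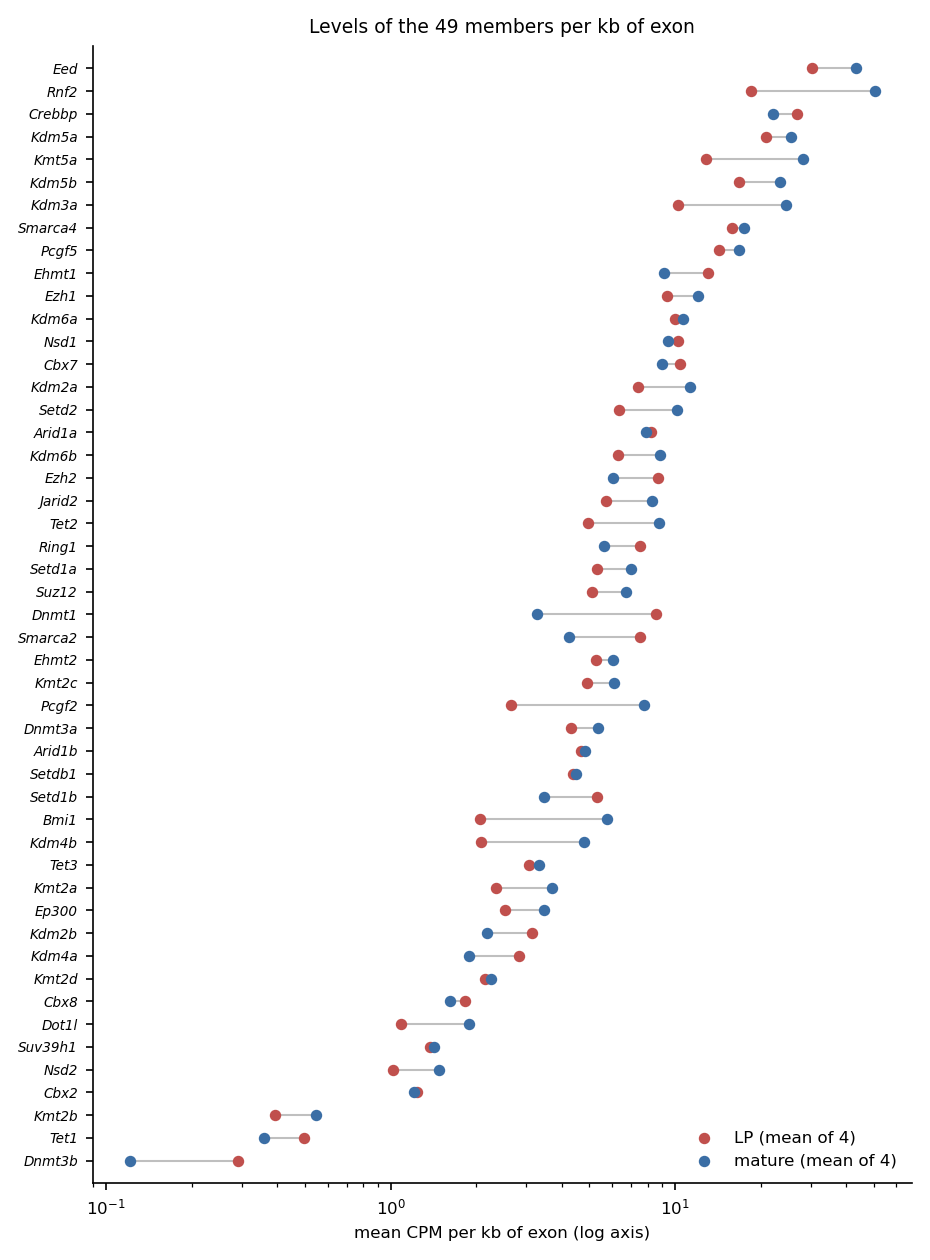
Mean CPM per kb of exon on a log axis for the 49 members in LP (red) and mature cells (blue), 4 libraries each, ordered by the mean over all 8. Eed leads at 36.7, Dnmt3b is lowest at 0.206, and the gaps between the colours are widest for members such as Rnf2, Bmi1, Pcgf2 and Dnmt1.

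A ratio of 2 genes within a library does not depend on how libraries are scaled, and 17 such ratios between related subunits were compared. For 4 of them the LP and mature libraries did not overlap, each with p = 0.0286 in a two-sided exact permutation test, the smallest value that 4 against 4 allows. After Benjamini-Hochberg adjustment over the 17 ratios these became 0.122 in the exact permutation test, so none passed. The mean log2 ratio of Rnf2 to Ring1 counts was 2.02 ± 0.83 in LP and 3.88 ± 0.34 in mature cells (SD, n = 4). Per kb of exon Rnf2 stood at 2.46 times Ring1 in LP and at 8.96 times Ring1 in mature cells. Crebbp to Ep300 stood at 3.70 ± 0.66 in LP and 2.86 ± 0.12 in mature cells. Setd1b to Setd1a was 0.40 ± 0.21 in LP and -0.60 ± 0.38 in mature cells, and Kdm2b to Kdm2a was -2.05 ± 0.32 and -3.16 ± 0.73. Setd1a and Kdm2b share 53.7% and 16.2% of their exon bases with other genes.

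The mean log2 ratio of Ezh2 to Ezh1 was -1.19 ± 0.68 in LP and -2.07 ± 0.53 in mature cells, and the libraries overlapped (exact permutation p = 0.114). For Bmi1 to Pcgf2, both called as higher in mature cells, the means were 0.04 ± 1.06 and -0.07 ± 0.85, a difference well within the spread (exact permutation p = 0.8). Smarca2 to Smarca4 was -0.87 ± 0.34 and -1.93 ± 0.49 (exact permutation p = 0.0571).

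**Figure D4:**
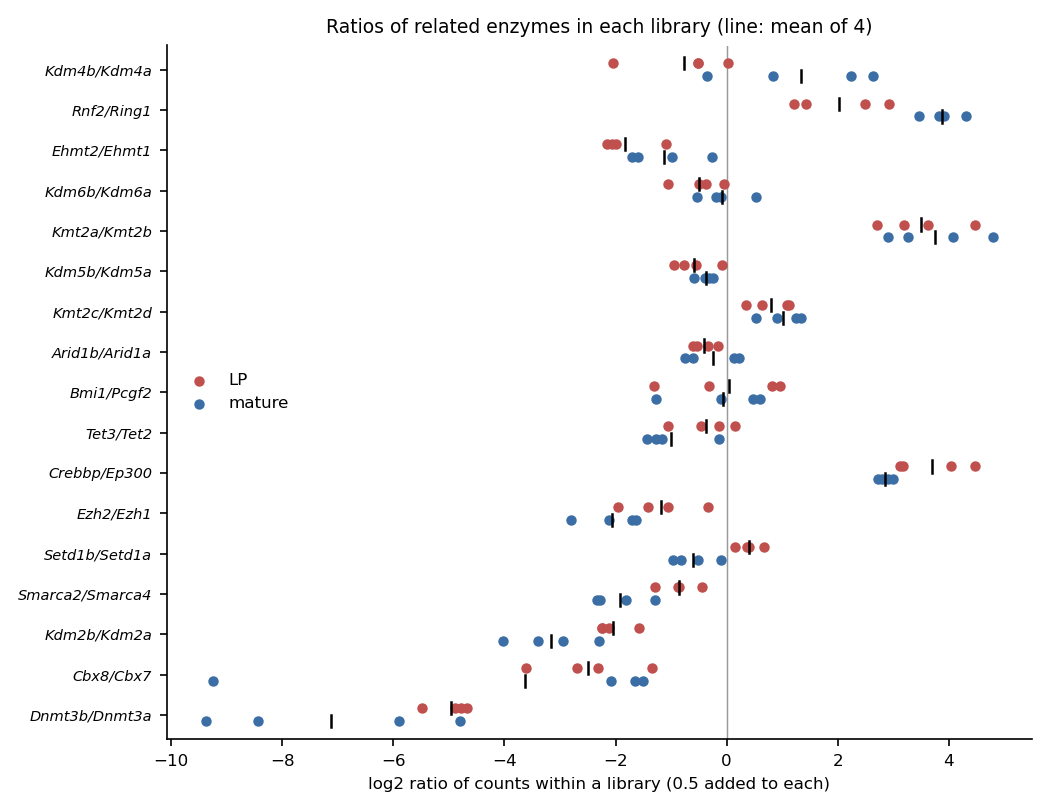
Log2 ratio of the counts of 2 related genes in each library, with 0.5 added to each count, for 17 pairs; red points are LP, blue points mature cells and black lines the mean of 4. Red and blue do not overlap for Rnf2/Ring1, Setd1b/Setd1a, Kdm2b/Kdm2a and Crebbp/Ep300.

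The same complexes have further subunits, listed by name in 10 lists of 119 genes. Of the 111 that were tested, 16 were called (14.4%, against 24.7% of all tested genes), 5 with LP above mature and 11 with mature above LP, a split of 14 and 7 with scaling by library totals alone. The called genes of the PRC1 list, 3 of 15 tested, were Scmh1 (log2 fold change -1.56) and the polyhomeotic subunit Phc3 (-0.79), higher in mature cells, and the chromodomain reader Cbx6 (1.02), higher in LP. None of 5 tested PRC2 partners was called, nor any of 12 subunits of the H3K4 complexes, 10 other demethylases and 8 other acetyltransferases. The lowest adjusted p-values in these lists were 0.159, 0.0847, 0.104 and 0.115 by edgeR's test. Asxl2 (-0.60), a partner of the deubiquitinase that reverses PRC1 ubiquitination, was the called gene among 5 of its list.

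Nsd3 (-1.05), a relative of Nsd1, and Smyd3 (-0.59) were called among 13 other methyltransferases (15.4%, against 24.7% of all tested genes). Of 12 tested DNA methylation partners 3 were called (25%, against 24.7% of all tested genes). All were members of the Gadd45 family, which is known for roles in DNA demethylation and in the stress response. Gadd45a was at 67.7 to 127 CPM in LP and 249 to 544 in mature cells (log2 fold change -2.27), Gadd45b at 8.91 to 38.9 and 168 to 220.1 (-3.09), and Gadd45g at 42.5 to 104 and 655 to 2384 (-4.52). The stress genes were higher in the same libraries, and their part in this was not tested.

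The SWI/SNF list had 4 calls among 20 tested genes (20%, against 24.7% of all tested genes). Smarcb1 (0.98), Ss18 (0.67) and Bcl7a (0.88) were higher in LP and Smarcd1 (-1.38) in mature cells. Smarcd1 ran from 179 to 231 CPM in LP and from 411 to 758 in mature cells. Of 11 histone deacetylases 3 were called (27.3%, against 24.7% of all tested genes). Hdac3 (1.03), the catalytic subunit of the NCoR complex, was higher in LP at 99.8 to 139 against 51.4 to 66.9 CPM. Hdac11 (-2.77) and Hdac7 (-0.98) were higher in mature cells, with Hdac11 at no more than 21.1 CPM in LP and at 80.3 to 179 in mature cells. Bcl7a and Smyd3 were called with overlapping libraries.

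**Figure D5:**
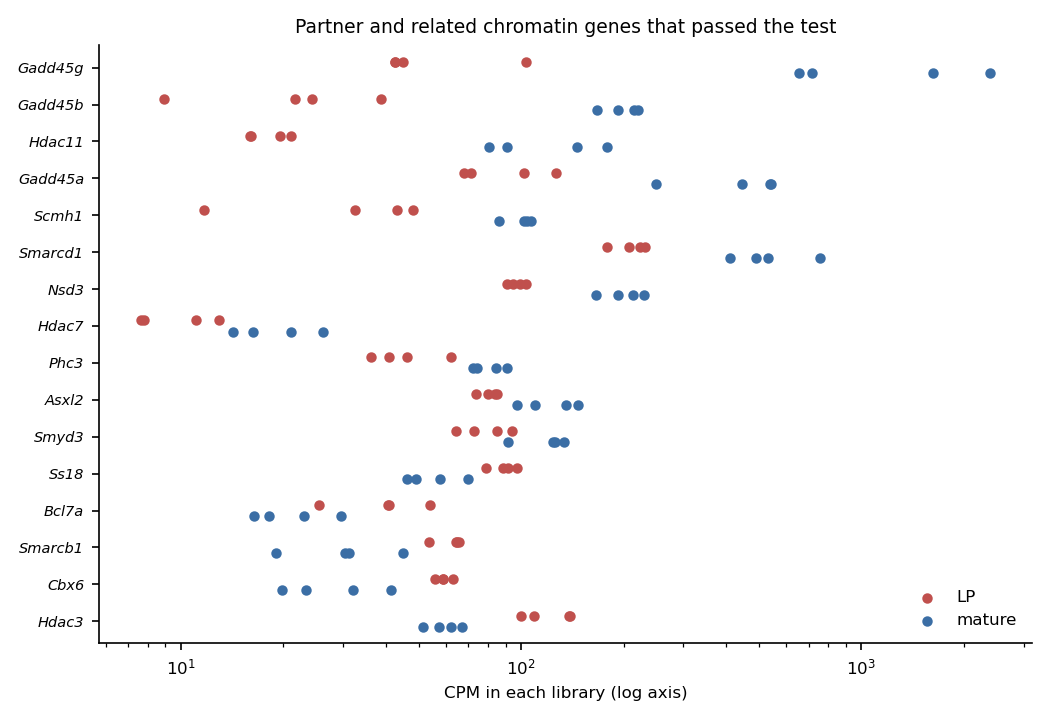
CPM in each library on a log axis for the 16 called partner and related genes, LP in red and mature cells in blue, ordered by log2 fold change. The Gadd45 genes and Hdac11 show the widest gaps, and Hdac3, Cbx6, Smarcb1, Bcl7a and Ss18 lie higher in LP.

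Of 51 genes that Polycomb complexes are known to silence, 44 had too few counts to be tested and 7 were tested. Of these 7, 2 were called (28.6%, against 24.7% of all tested genes). Of 39 Hox cluster genes 19 had no count in any library and 4 were tested. Hoxb2 was called, at 26.4 to 44.4 CPM in LP and 69.1 to 83.5 in mature cells (log2 fold change -1.08, SE 0.197, edgeR adjusted p = 0.00342). Of 12 other loci used as textbook examples 3 were tested, and Gata4 was called, at 2.16 to 3.82 CPM in LP and 8.30 to 13.4 in mature cells (log2 fold change -2.09, SE 0.413, edgeR adjusted p = 0.00491). Cdkn2a, the classical Bmi1 target that encodes cell cycle inhibitors, had 0 counts in all 8 libraries, where a floor of 3 counts per library allows a level of up to 0.416 to 0.788 CPM, depending on the library, by counting error alone. Neither the histone marks nor DNA methylation themselves were measured in these libraries.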

How the data were processed

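The authors trimmed 8 mouse RNA-seq libraries (4 LP, 4 mature luminal) with cutadapt (4.2 in the submitters' processing notes), aligned them to mm10 with Bowtie2 (2.3.5.1), which does not split reads across introns, and deposited raw counts per Entrez gene. The counting program, its annotation, its strand setting and its handling of reads matching several genes are not given in the sources used here. Symbols and positions came from RefSeq GRCm38.p6 (24570 of 24594 identifiers matched), exon lengths from GENCODE vM21.

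Counts were filtered with filterByExpr, scaled by TMM and compared with the quasi-likelihood F-test of edgeR 4.0.16 in R 4.3.3, adjusted by Benjamini-Hochberg over 12816 genes. The standard error is the absolute log2 fold change divided by the square root of F. The biological coefficient of variation was 0.393. Ratios were tested by exact permutation in scipy 1.17.1. The test was checked on simulated data. DESeq2 1.42.0 was among 15 alternative fits. Replicate libraries differed beyond counting noise (chi-square per degree of freedom 11.95 or more), so none was a copy. Every member is accounted for. Per-library values are given for called members, members with separate groups, and the highest per kb in each group. The members and lists were chosen with earlier results of these data known. Hba-a2 and Hbb-bs, of the erythroid markers, were not analysed here.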

Additional observations from a re-analysis of the deposited data

Results flagged for a closer look

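Within each group of 4 libraries, the highest or lowest value of every member was compared with the range of the group by Dixon's ratio, at its 95% limit. Of 98 groups examined, 6 exceeded it, where chance alone flags about 1 in 20, or 4.9 of 98. In 5 of the 6 the separate library was LP replicate 3 and the value was high. Nsd2 stood at 24.7 CPM there against 11.4 to 13.7 in the other LP libraries, Dot1l at 14.8 against 4.74 to 5.41, Kdm2b at 32.5 against 12.7 to 14.8, Dnmt3a at 62.9 against 33.4 to 38.0 and Tet1 at 13.1 against 4.46 to 5.83. In the mature group, Kdm4a stood at 20.4 CPM in replicate 3 against 4.92 to 7.23 in the others.

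LP replicate 3 was the highest LP library for 30 of the 48 tested members (62.5%) and for 28.0% of all tested genes. It had the fewest counts of the LP libraries, 5510863. Without LP replicate 3, 11 members were called in place of 8, and Dot1l, Kdm5b and Tet2 were among those gained. None of the 6 flagged genes was called in the fit with all 8 libraries.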

How the results depend on the processing

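Rnf2, Kmt5a, Kdm3a and Dnmt1 were called in all 15 alternative fits; Jarid2 was called in 3, Bmi1 in 8, Pcgf2 in 9 and Setd2 in 10. For the called members every fit kept the direction. Leaving out 1 library at a time gave 2338 to 3414 genes, 4 to 11 members (1 to 3 with LP above mature, 3 to 9 with mature above LP), 12 to 17 related genes and 4 to 6 separate ratios; the 4 members came without LP replicate 4, and 5 came without LP replicate 2 or mature replicate 4. Without mature replicate 1, Bmi1 fell to a log2 fold change of -1.08 (edgeR adjusted p = 0.106). DESeq2 called 2 members with LP above mature, as did a minimum of 10 counts per library. Scaling by library totals alone, chosen after the data were seen, shifted the median of all genes by 0.19; it called 4 members with LP above mature and 3 with mature above LP. Under it Smarca4 was at 0.04, and without LP replicate 3 Nsd1 was at -0.03 (range over the libraries left out -0.03 to 0.25), each with its sign reversed and not called. With a replicate block, 3027 genes and 6 members were called, 2 with LP above mature and 4 with mature above LP, and 6 ratios kept 1 sign in all 4 pairs; Bmi1, Pcgf2 and Jarid2 lost their calls and Smarca2 gained one. The labels join LP and mature libraries by a number whose meaning is not stated. The deviations of equal numbers correlated at 0.113, 0.0618, 0.148 and 0.0844, and those of unequal numbers at -0.156 to 0.0779. Every LP library correlated best with its own number, and mature replicate 2 did not. Whether the libraries are paired is not settled, and the main fit treated them as unpaired. The cause of these changes was not tested.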

Other observations

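Some related genes had large fold changes that missed the threshold, and they were singled out after their values were seen. Zfp57, a zinc finger protein that keeps DNA methylation at imprinted loci, had 0, 2.01, 0.166 and 0 CPM in LP replicates 1 to 4 and 18.0, 6.57, 9.53 and 0 CPM in mature replicates 1 to 4 (edgeR adjusted p = 0.0754). It was thus present in 3 of 4 mature libraries. Hdac10 had 5.46 to 10.7 CPM in LP and 2.36 to 4.50 in mature cells, with groups that did not overlap (log2 fold change 1.08, SE 0.453, edgeR adjusted p = 0.107). Bcor, a subunit of a variant PRC1, had 4.99 to 15.1 CPM in LP and 10.8 to 26.9 in mature cells (log2 fold change -1.07, SE 0.443, edgeR adjusted p = 0.105). Cdkn1c, an imprinted cell cycle inhibitor among the Polycomb-regulated loci, had a log2 fold change of -1.54 (edgeR adjusted p = 0.0555). It stood at 3.45 to 8.60 CPM in LP and at 27.4, 28.1, 9.38 and 6.93 in mature replicates 1 to 4, with overlapping groups.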
